A study of Caenorhabditis elegans with 2 samples.

Results

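SNPC-4 peaks were described in the 2 stretches of chromosome IV that hold most genes for PIWI-interacting RNAs (piRNAs) of Caenorhabditis elegans. A peak was a member when it belonged to the pooled relaxed list and its summit lay on chromosome IV at 4.5 to 7.0 Mb of build ce11 (domain 1), or in the 3.7 Mb that begin 6.5 Mb past the end of that stretch (domain 2). This gave 2170 of the 30000 peaks in that list, 798 in domain 1 and 1372 in domain 2. The other 3416 peaks of chromosome IV, of 5586 in all, served as background. A relaxed list holds weak peaks together with strong ones, and 739 of the 798 and 1305 of the 1372 members were absent from the authors' thresholded list. The name "weak peaks" therefore fits most members but not the strongest, whose signal reached 1170.

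The assay was chromatin immunoprecipitation with sequencing (ChIP-seq) against eGFP-tagged SNPC-4 in whole L1 larvae, the first larval stage. The strain was OP179, which carries the unc-119(ed3) III mutation and the wgIs179 transgene of snpc-4, and the larvae were pooled males and females. There were 2 biological replicates of 1 group and no second condition, so values are given for each replicate list and no test between samples was possible. Read numbers were not given, so the depth is unknown, and intervals below are exact 95% binomial intervals that cover counting error over peaks only. In whole larvae, binding in few cells and weak binding in many cells cannot be told apart.

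SNPC-4 belongs to SNAPc, a complex that activates small RNA genes by binding upstream of genes for small nuclear RNAs (snRNAs) and spliced leader (SL) RNAs. In the germline it also occupies the piRNA clusters of chromosome IV, together with PRDE-1, TOFU-4 and TOFU-5. Each piRNA gene there is a separate, very short transcription unit that can carry an upstream motif with the core CTGTTTCA, and the mature piRNAs guide the Argonaute PRG-1. This exact core lay in the 60 bp upstream of 39.7% of the piRNA genes of domain 1 and 33.6% of those of domain 2.

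The sequences around some summits are given in 2 sets. These were picked by signal and position and are not kinds of member found from the sequences. The first set gives windows reaching 50 bp to either side of the summits of strong members beside small RNA genes and of strong members whose nearest gene was a piRNA gene, from WBcel235, the assembly of ce11. Capitals mark TGTCGG or its reverse complement CCGACA, a word noticed in these windows after they had been printed.
T08B6.64 (chrIV:4880865-4880965, minus strand): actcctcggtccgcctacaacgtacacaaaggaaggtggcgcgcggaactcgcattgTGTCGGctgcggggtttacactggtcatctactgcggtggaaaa
sls-2.17 (chrIV:5317377-5317477, minus strand): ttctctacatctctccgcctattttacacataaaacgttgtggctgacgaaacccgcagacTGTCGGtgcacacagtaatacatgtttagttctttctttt
21ur-3329 (chrIV:5565256-5565356, minus strand): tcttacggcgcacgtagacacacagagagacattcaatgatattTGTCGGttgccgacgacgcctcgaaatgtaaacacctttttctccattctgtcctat
Y67A10A.14 (chrIV:14327138-14327238, minus strand): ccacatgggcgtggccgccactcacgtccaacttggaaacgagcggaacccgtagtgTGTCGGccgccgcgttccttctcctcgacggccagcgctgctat
21ur-916 (chrIV:14445535-14445635, minus strand): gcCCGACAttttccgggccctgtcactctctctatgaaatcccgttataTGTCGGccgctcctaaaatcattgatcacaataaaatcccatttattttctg
21ur-12855 (chrIV:16181303-16181403, minus strand): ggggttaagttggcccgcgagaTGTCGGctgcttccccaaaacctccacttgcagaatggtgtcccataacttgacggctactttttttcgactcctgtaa
All 6 windows held the word, in the same orientation as the gene for T08B6.64, sls-2.17 and Y67A10A.14. The rule took 2 further windows that lie in exons and are not printed, and of these the one in lin-66 held the word and the one at 21ur-3187 did not. Among the 8 members with the highest signal it was present at 5 in each domain.

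The second set gives the summits that lay 20 to 80 bp upstream of a piRNA 5′ end with the core motif, with the highest signal of that kind in each domain. Capitals mark CTGTTTCA on the strand of the piRNA gene and those bases of the piRNA gene that fall in the window.
21ur-1991 (chrIV:5739458-5739558, plus strand): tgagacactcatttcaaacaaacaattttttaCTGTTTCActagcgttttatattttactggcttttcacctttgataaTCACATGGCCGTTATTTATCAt
21ur-12668 (chrIV:5762700-5762800, minus strand): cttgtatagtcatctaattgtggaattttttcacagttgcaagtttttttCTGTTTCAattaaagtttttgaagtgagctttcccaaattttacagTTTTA
21ur-6593 (chrIV:14123043-14123143, minus strand): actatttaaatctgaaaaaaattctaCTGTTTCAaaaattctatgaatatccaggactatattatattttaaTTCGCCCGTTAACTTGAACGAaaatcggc
21ur-503 (chrIV:15068496-15068596, plus strand): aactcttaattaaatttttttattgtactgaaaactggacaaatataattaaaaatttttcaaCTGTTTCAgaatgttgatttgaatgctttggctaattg
The piRNA gene 21ur-503 begins beyond its window, so only its motif is in capitals. None of these 4 windows held TGTCGG, which was present in 2.08% of all windows of domain 1 and 3.51% of those of domain 2.

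Peaks were slightly denser in domain 2 than on the rest of chromosome IV, and hardly denser in domain 1, although piRNA genes were far denser in both. Domain 1 held 319.2 peaks per Mb and 2816 piRNA genes (1126 per Mb). Domain 2 held 370.8 peaks per Mb and 11388 piRNA genes (3078 per Mb). The rest of the chromosome held 302.5 peaks and 45.2 piRNA genes per Mb, which put the ratio of peak densities at 1.06 for domain 1 and 1.23 for domain 2. With the thresholded list the order turned round, at 1.10 for domain 1 and 0.84 for domain 2.

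The replicate lists gave smaller ratios than the pooled list. In replicate 1 the densities were 307.6 per Mb in domain 1, 344.9 in domain 2 and 304.1 on the rest of the chromosome. In replicate 2 they were 302.4, 340.0 and 298.3 per Mb. Domain 1 thus stood above the rest by less than the replicates differed from each other, while domain 2 stood above it in each list by more than that.

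A pair of features of the sequence moved with these densities. Coding exons, where summits were few in every region, made up 22.7% of domain 1, 13.2% of domain 2 and 25.7% of the rest. Outside coding exons the pooled densities were 373.0, 401.6 and 360.7 per Mb, and the replicate lists gave 348.7 and 341.4 in domain 1, 364.6 and 355.9 in domain 2, and 355.3 and 344.2 on the rest. By that count domain 2 remained above the rest in each replicate list and domain 1 lay below it. Position along the chromosome was the other feature. The left end of chromosome IV, before domain 1, held 340.9 peaks per Mb with 31 piRNA genes, and the middle between the domains held 273.4. The outer 4 Mb of the other chromosomes ranged from 207.5 to 426.0 peaks per Mb, a range that holds domain 2. Their middles ranged from 249.0 to 309.4, and domain 1, which lies inward of the outer 4 Mb of its own chromosome, was above all of them in the pooled list.

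**Figure D1:**
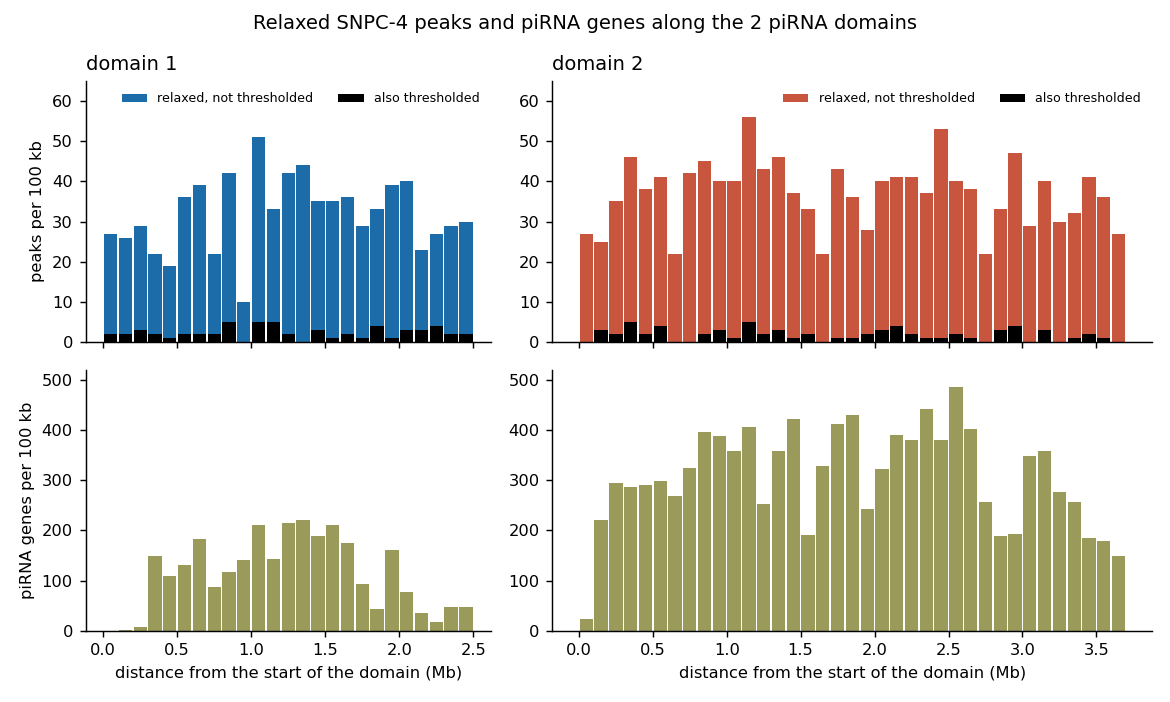
Peaks of the pooled relaxed list (upper bars, with black for those also in the thresholded list) and annotated piRNA genes (lower bars) per 100 kb, by distance from the start of each domain. Peak counts ran from 10 to 51 in domain 1 and from 22 to 56 in domain 2, while piRNA genes ran from 0 to 220 and from 24 to 486.

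Within each domain the windows richer in piRNA genes tended to hold more weak peaks. Over the 25 windows of 100 kb in domain 1, Spearman's rank correlation between peaks and piRNA genes was 0.59, and over the 37 windows of domain 2 it was 0.40. With piRNA genes of the same strand within 1 kb counted as a locus it was 0.49 and 0.12. These are descriptions, since windows share the same libraries, depth and base composition. In domain 1 the rank correlation was 0.26 with the peaks of replicate 1 and 0.40 with those of replicate 2. In domain 2 it was 0.39 and 0.21, so the relation was positive in both replicate lists and weaker than in the pooled one. With the thresholded peaks it was −0.25 in domain 1 and 0.08 in domain 2.

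The share of single-copy sequence moved with the peaks about as closely. The rank correlation between peaks and the percentage of single-copy 36-base words was 0.47 in domain 1 and 0.40 in domain 2, and its part in the relation to piRNA genes was not tested. The extreme windows followed the trend in part. The windows with the fewest piRNA genes, 0 in domain 1 and 24 in domain 2, held 27 peaks each, below the medians of 33 and 38. The window of domain 1 with the most piRNA genes, 220 at chrIV:5800001-5900000, held 44 peaks. The window of domain 1 with the fewest peaks (chrIV:5400001-5500000) held 10 peaks and 141 piRNA genes, above the median of 118 genes per window. Its neighbour chrIV:5500001-5600000 held the most peaks of the domain, 51, with 211 piRNA genes. In domain 2 the window with the most piRNA genes, 486 at chrIV:16000001-16100000, held 40 peaks against a median of 38. The most peaks, 56, lay at chrIV:14600001-14700000 with 407 piRNA genes.

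At a finer scale, peak density was highest where piRNA genes were crowded. In domain 1, sequence with no piRNA 5′ end within 2.5 kb held 243.2 peaks per Mb, sequence with 5 to 9 held 356.9 and sequence with 10 to 19 held 425.8. The densest class, with 20 or more, held 571.1 per Mb but only 16 peaks on 1.12% of the domain. In domain 2 the course was not steady, with 311.6 per Mb at 0, 217.1 at 1 to 4, 230.5 at 5 to 9, 375.0 at 10 to 19 and 452.3 at 20 or more. Both replicate lists were also densest where piRNA genes were most crowded, going from 256.3 and 264.1 at 0 to 373.7 and 403.5 per Mb at 10 to 19 in domain 1, and to 422.7 and 397.8 at 20 or more in domain 2.

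The crowded stretches held less coding sequence, and their peaks were mostly found in both replicates less often. Coding exons made up 29.8% of the piRNA-free sequence of domain 1 and 14.1% of that with 10 to 19 piRNA genes. In domain 2 they made up 22.5% at 0 and 7.36% at 20 or more. Outside coding exons the densities still went from 298.1 to 459.4 per Mb in domain 1 and from 344.2 to 472.6 in domain 2 between the same classes. Between the same classes the share of peaks found in both replicates went from 30.7% to 13.3% in domain 1 and from 24.8% to 15.3% in domain 2. The most crowded class of domain 1, with its 16 peaks, had 25% and went the other way.

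**Figure D2:**
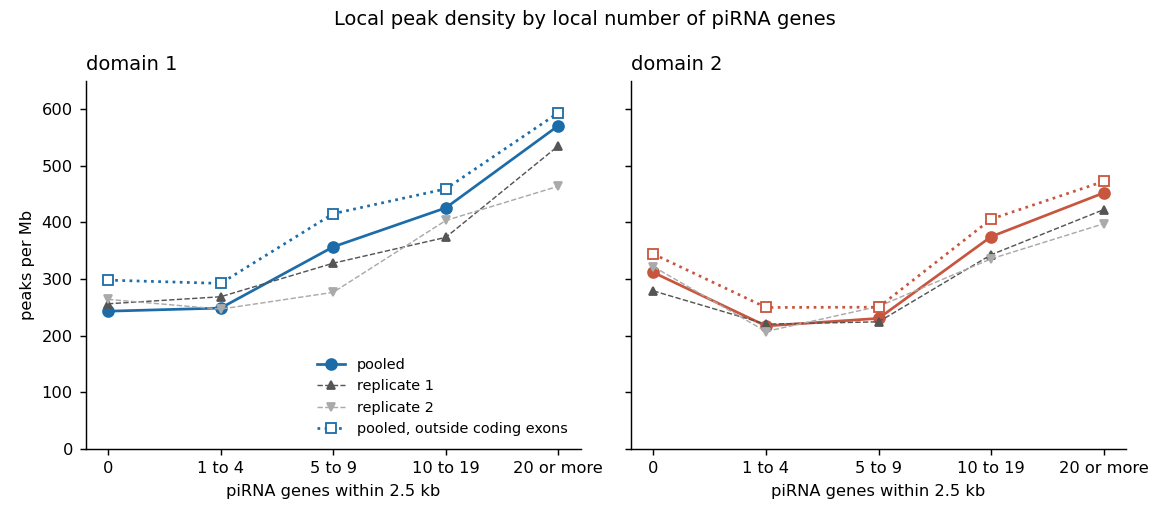
Peaks per Mb of sequence grouped by the number of piRNA 5′ ends within 2.5 kb, for the pooled list, each replicate list and the pooled list outside coding exons. In domain 1 the pooled density goes from 243.2 to 571.1 per Mb, the last class holding 16 peaks, and in domain 2 from 311.6 at 0 through 217.1 to 452.3.

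Most members had a signal close to the floor of the list. Signal is the authors' value for each peak, on a scale not given in the sources used here, and it was compared only within a list. The lowest signal was 6.68 in domain 1 and 6.69 in domain 2. The median was 9.93 (quartiles 8.002 and 13.8) in domain 1, 9.61 (8.07 and 12.9) in domain 2 and 9.995 (8.03 and 14.0) on the rest of the chromosome. Domain 2 was low at intermediate signals as well, with a 90th percentile of 19.1 against 24.97 in domain 1 and 24.2 on the rest. Further up it was not, since 1.17% of its peaks and 0.82% of those on the rest had a signal of 100.7 or more.

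The replicate lists placed domain 2 lowest too. In replicate 1 the medians were 5.77, 5.57 and 5.90 for domain 1, domain 2 and the rest, and in replicate 2 they were 6.78, 6.48 and 6.58. Domain 1 lay below the rest in replicate 1 and above it in replicate 2. Few members reached the thresholded list, which took 7.74% of all nuclear relaxed peaks and 7.11% of those on the rest of the chromosome. It took 59 of 798 in domain 1 (7.39%, interval 5.68 to 9.43%) and 67 of 1372 in domain 2 (4.88%, interval 3.804 to 6.16%). The share in domain 1 was near the background, and the interval of domain 2 lay below it.

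**Figure D3:**
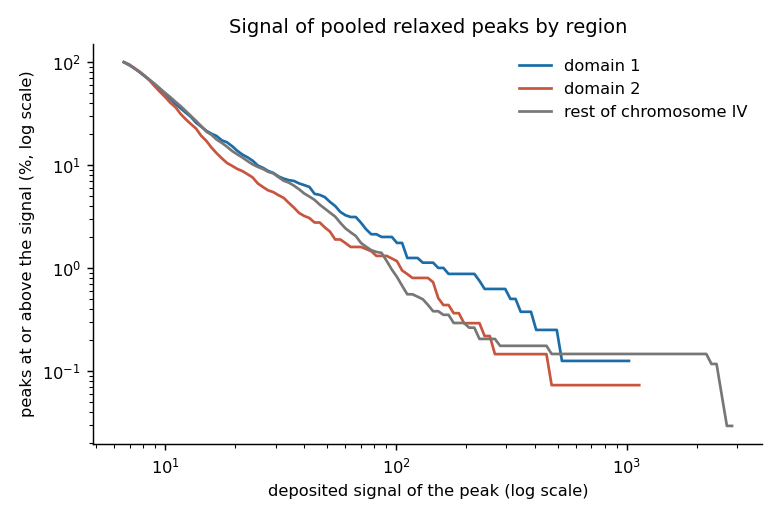
Percentage of peaks at or above a given signal, in the pooled relaxed list, for domain 1, domain 2 and the rest of chromosome IV (both axes logarithmic). Domain 2 lies lowest at intermediate signals, where its 90th percentile is 19.1, and the 3 curves start together near 6.68.

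The strongest members of domain 1 lay just upstream of small RNA genes that are not piRNA genes. The highest, at chrIV:4880725-4881071, had signal 1066 in the pooled list, 432.8 in replicate 1 and 639.8 in replicate 2. Its summit was 65 bp upstream of T08B6.64, a small nucleolar RNA (snoRNA) gene, and the nearest piRNA 5′ end was 1574 bp away. The second, with signal 517.2 (225.2 and 301.9 in the replicates), was 59 bp upstream of sls-2.17, a gene for the spliced leader SL2 that is joined to downstream messages of operons. The next were M03D4.78, a snoRNA gene (392.6), R07E5.16, a snRNA gene (344.9), and sls-2.13, another SL2 gene (304.2), with summits 84, 57 and 58 bp upstream. ZK185.9, a snoRNA gene, had 221.2. The protein-coding genes Y17G9B.5, with 237.1, and ruvb-2, which encodes a RuvB-like ATPase, with 162.2, completed the 8 highest. None of these 8 summits had a piRNA 5′ end within 250 bp.

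Domain 2 was more varied. Its highest member, at chrIV:14327008-14327378, had signal 1170 (471.6 in replicate 1 and 739.9 in replicate 2) and a summit 67 bp upstream of the snoRNA gene Y67A10A.14. The second, with 447.8 (175.3 and 276.1), lay in an exon of lin-66, a gene of the developmental timing pathway, 5259 bp downstream of its 5′ end and 358 bp upstream of 21ur-10153. A member with 254.5 had its nearest gene 5′ end at the tRNA gene F13G11.t1, 917 bp away, and a member with 241.3 lay 11 bp upstream of the tRNA gene Y37A1B.t1. A non-coding RNA gene at chrIV:15853103-15853207 had a summit 74 bp upstream of it, with 176.7. A peak 127 bp upstream of ntl-11, which encodes a subunit of the CCR4-NOT deadenylase complex, had 151.2.

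The remaining pair of the 8 had a piRNA gene nearest, and both summits lay downstream of its 5′ end rather than in its promoter. At 21ur-916 (chrIV:14445766-14445786, minus strand) the summit was 201 bp downstream with signal 194.9, 72.4 in replicate 1 and 121.8 in replicate 2. At 21ur-12855 (chrIV:16181491-16181511, minus strand) it was 158 bp downstream with 157.1, 64.7 and 103.3. Their windows are among those printed above and each held TGTCGG. In domain 1 the strongest member of this kind, at 21ur-3329, was 198 bp downstream of the 5′ end with signal 69.4 (30.9 and 37.5).

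Of the 5 such members per domain with the highest signal, 4 in domain 1 and 3 in domain 2 had the summit downstream of the nearest piRNA 5′ end. The others of domain 1 were 21ur-3187 with 49.7, 21ur-11026 with 36.9, 21ur-6515 with 30.6 and 21ur-9311 with 27.2. Those of domain 2 were 21ur-11253 with 101.2, 21ur-13156 with 53.1 and 21ur-8949 with 53.0. All 10 summits were at least 106 bp from the piRNA 5′ end. Among all members within 250 bp of a piRNA 5′ end, 55.2% in domain 1 and 53.4% in domain 2 lay upstream of it. Of these members, 165 of 330 in domain 1 and 627 of 967 in domain 2 lay within 100 bp. Whether the 10 differ from these shares was not tested. In proportion, the replicate values of the 10 lay furthest apart at 21ur-11026, with 3.997 in replicate 1 and 25.1 in replicate 2. The scale of the signal may differ between the replicate lists.

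Members in the position of a piRNA promoter with the core motif reached a signal of 17.8 at most in domain 1 and 26.0 in domain 2. Those with a summit 20 to 80 bp upstream of a piRNA 5′ end that has CTGTTTCA in the 60 bp before it numbered 23 in domain 1 and 79 in domain 2. In domain 1 the highest was 17.8, at 21ur-1991, with a summit in replicate 2 alone, followed by 15.5 at 21ur-12668 and 11.7 at 21ur-15690, each found in replicate 1 alone. The summit at 21ur-1991 also lay 69 bp upstream of the pseudogene C45E5.3, which is on the same strand. In domain 2 the highest were 26.0 at 21ur-6593, 18.1 at 21ur-503 and 17.17 at 21ur-11234, all found in both replicates. All 6 lay above the median signal of their domain, 9.93 in domain 1 and 9.61 in domain 2. They were picked for the highest signal, so this says nothing about the other members in that position. None of these 6 was in the thresholded list, which took 7.39% of all members in domain 1 and 4.88% in domain 2.

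Members lay near piRNA 5′ ends somewhat more often than random positions of the same domain. In domain 1, 330 of 798 summits (41.4%, interval 37.9 to 44.9%) lay within 250 bp of one, against 33.7% of positions, a ratio of 1.23. In domain 2, 967 of 1372 (70.5%, interval 68.0 to 72.9%) did, against 61.2% of positions, a ratio of 1.15. Replicate 1 gave ratios of 1.14 and replicate 2 of 1.17 in domain 1, so the pooled value was the highest of the 3 lists. In domain 2 they gave 1.15 and 1.12. The sparse piRNA genes on the rest of chromosome IV gave a ratio of 1.15 from 72 peaks.

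Coding exons moved with this ratio as well, since few piRNA 5′ ends lie in them. They held 2.73% of the piRNA 5′ ends of domain 1 and 1.67% of those of domain 2, and 9.65% and 5.98% of the summits. Outside coding exons the ratio was 1.14 in domain 1, 1.12 in domain 2 and 1.12 on the rest of the chromosome. At that distance the ratio of each domain was close to the background, which rests on 67 peaks. Within 100 bp the ratios outside coding exons were 1.09 and 1.12, against 0.95 on the rest from 26 peaks. Within 500 bp they were 1.17 and 1.12 against 1.04. Within 50 bp the rest was higher, at 1.27 from 18 peaks against 1.13 in each domain. Within 20 bp the ratios were 1.025 and 1.08, against 0.68 on the rest from 4 peaks. The order of the domains and the rest thus changed with the distance.

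The excess over all positions was present at all but the highest signals. All nuclear relaxed peaks were split by signal into 4 classes of about equal size, class 1 the lowest. In domain 1, 51.2% of members in class 1 had a piRNA 5′ end within 250 bp, 46.5% in class 2, 45.5% in class 3 and 20.6% in class 4. The last of these is below the 33.7% of positions. In domain 2 the shares were 71.7%, 74.6%, 78.5% and 52.4%, again with class 4 below the 61.2% of positions. Of the thresholded members, 5 of 59 (8.47%) in domain 1 and 23 of 67 (34.3%) in domain 2 had a piRNA 5′ end that near.

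Other gene classes showed the opposite course. Among domain 1 members, 14.2% of class 1 and 41.8% of class 4 had the start of a gene other than a piRNA gene within 250 bp, as had 8.22% and 25.7% in domain 2. The windows around the summits also differed in base composition, with a median GC content of 29.7% in class 1 and 39.6% in class 4 of domain 1, and 27.7% and 40.6% in domain 2. The rest of the chromosome had 31.7% and 40.6%, and the part of GC content in the course of these shares was not tested.

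**Figure D4:**
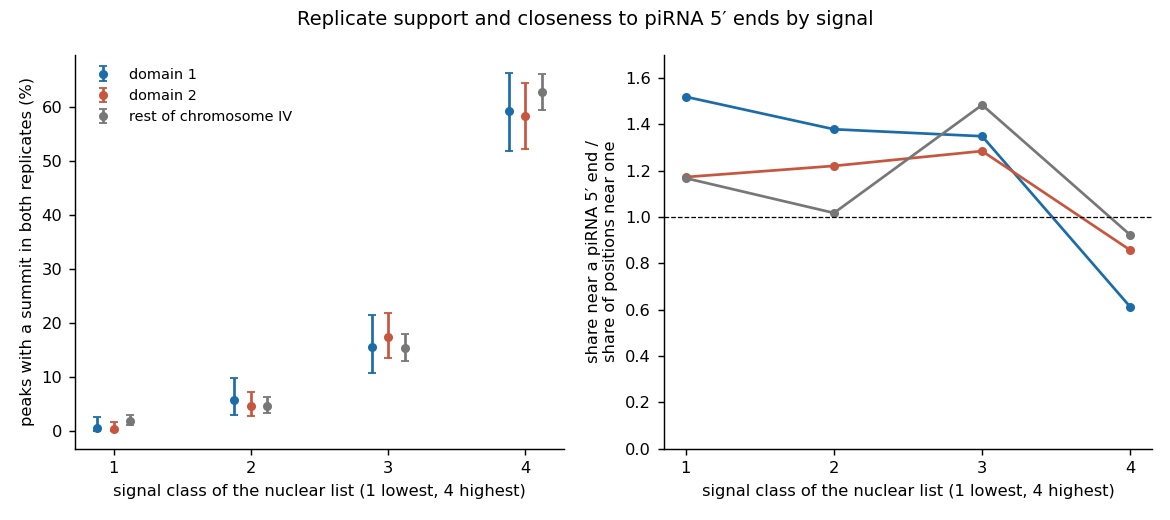
Left, percentage of pooled relaxed peaks with a summit within 100 bp in both replicate lists, by signal class of the nuclear list, with exact 95% binomial intervals. Right, share of peaks within 250 bp of a piRNA 5′ end divided by the share of positions that near (dashed line at 1), which is 0.61 in class 4 of domain 1 and 0.86 in that of domain 2.

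No distance from piRNA 5′ ends stood out in both domains. Counting all pairs of a summit and a piRNA 5′ end up to 1000 bp apart in bins of 50 bp, domain 1 gave 40 to 73 pairs per bin with a mean of 58.2, and domain 2 gave 207 to 296 with a mean of 248.1. The bin just upstream of the 5′ end held 47 pairs in domain 1, below the mean, and 269 in domain 2, above it but below the highest bin, which lay 700 to 750 bp downstream. Of members within 250 bp, the median offset from the nearest piRNA 5′ end was 18 bp upstream in domain 1 (quartiles −110 and 68 bp) and 8 bp upstream in domain 2 (−76 and 67 bp). Upstream summits were 55.2% in domain 1 and 53.4% in domain 2, against 50.1% and 50.4% of positions. Summits 20 to 80 bp upstream, the promoter position, were 46 of the 330 in domain 1 (13.9% against 15.5% of positions) and 220 of the 967 in domain 2 (22.8% against 19.8%), so the domains went opposite ways.

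The promoter position itself was occupied little more often than sequence at large. A summit lay 20 to 80 bp upstream of 61 of 2816 piRNA genes in domain 1 (2.17%, against 1.95% for a window of that width placed anywhere in the domain) and of 318 of 11388 in domain 2 (2.79% against 2.26%). Within 250 bp on either side, 567 piRNA genes of domain 1 (20.1%) and 2415 of domain 2 (21.2%) had a summit, against 15.2% and 17.7% of positions. piRNA genes share summits, since their median spacing was 334 bp in domain 1 and 165 bp in domain 2. Genes with the core motif did not stand apart in direction across domains, with 19.3% against 20.7% for genes without it in domain 1 and 21.8% against 20.9% in domain 2.

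**Figure D5:**
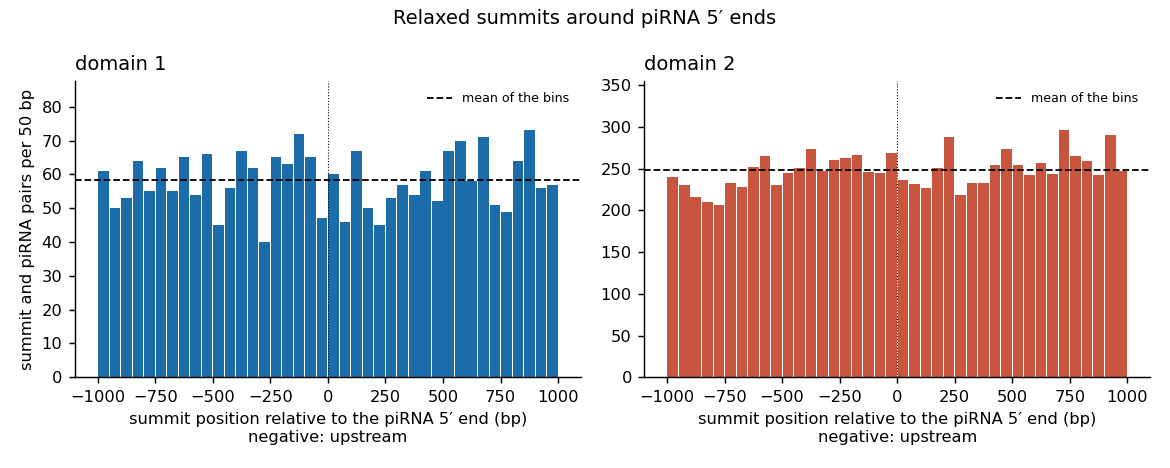
Pairs of a pooled relaxed summit and a piRNA 5′ end per 50 bp of distance, from 1000 bp upstream (negative) to 1000 bp downstream, with the mean of the bins dashed. The bars scatter around means of 58.2 and 248.1 and the bins next to the 5′ end lie within the range of the others.

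Fewer than 1 in 5 members was found in both replicates when a match meant a summit within 100 bp. With a match within 200 bp the shares were 28.8% in domain 1 and 24.1% in domain 2, and with any overlap of the intervals 38.4% and 33.0%. A summit within 100 bp in each replicate list was present for 154 members of domain 1 (19.3%, interval 16.6 to 22.2%) and 236 of the 1372 of domain 2 (interval 15.2 to 19.3%). The background was 20.6% on the rest of the chromosome and 21.3% over all nuclear peaks. The share of domain 1 was near it, and the interval of domain 2 lay below it but met the interval of the rest, 19.3 to 22.0%. Of positions, 1.14% in domain 1 and 1.16% in domain 2 were that near to summits of both. A further 171 members of domain 1 (21.4%) and 330 of domain 2 (24.1%) had no summit within 100 bp in either replicate. The pooled list was made from the same reads as the replicate lists, so this support is not independent of it.

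Support was more frequent at higher signal, and from class 2 upward its steps were similar in the domains and on the rest of the chromosome. From class 1 to class 4 it was 0.47%, 5.69%, 15.5% and 59.3% in domain 1, 0.28%, 4.63%, 17.4% and 58.4% in domain 2, and 1.80%, 4.67%, 15.4% and 62.8% on the rest of the chromosome. Class 1 held 1 supported peak of 211 in domain 1 and 1 of 353 in domain 2, against 16 of 887 on the rest. The upper limits of the intervals were 2.61% in domain 1 and 1.57% in domain 2. The interval of the rest was 1.03 to 2.91% and overlapped those of both domains. Supported members lay close to their partners, at a median of 20 bp from the replicate 1 summit and 11 bp from the replicate 2 summit in domain 1, and 21 and 12 bp in domain 2.

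Members beside piRNA 5′ ends were supported less often than other members. With a piRNA 5′ end within 250 bp and no other gene 5′ end within 500 bp, 26 of 266 members of domain 1 (9.77%) and 104 of 844 of domain 2 (12.3%) were found in both replicates, and 3 and 14 were thresholded. With another gene 5′ end within 500 bp, 83 of 269 (30.9%) and 72 of 253 (28.5%) were found in both, and 44 and 38 were thresholded. Members near neither had 45 of 263 (17.1%) and 60 of 275 (21.8%). The median signal of these groups was 9.27, 11.3 and 9.70 in domain 1, and 9.31, 11.3 and 9.51 in domain 2, so signal moved with support.

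The replicate lists can also be set against each other without the pooled list. More than 500 bp from any thresholded summit, replicate 1 had 286 summits of domain 1 within 250 bp of a piRNA 5′ end, and 26 of them (9.09%, interval 6.03 to 13.0%) had a replicate 2 summit within 100 bp, against 7.002% of such positions. Away from piRNA 5′ ends it was 64 of 412 (15.5%, interval 12.2 to 19.4%) against 4.95%. In domain 2 it was 111 of 872 (12.7%, interval 10.6 to 15.1%) against 7.51% near piRNA 5′ ends, and 61 of 323 (18.9%, interval 14.8 to 23.6%) against 4.91% away from them. Weak summits near piRNA 5′ ends were thus matched 1.30 and 1.69 times as often as positions, and weak summits elsewhere in the domains 3.14 and 3.84 times. Starting from replicate 2 the values were 1.44 and 1.67, and 2.99 and 3.95. On the rest of the chromosome the ratio away from piRNA 5′ ends was 2.68 from either replicate. Near them it was 2.06 from replicate 1 (8 of 66 summits) and 2.41 from replicate 2 (9 of 59). Summits beside the starts of other genes were not left out of either group, and their part in the contrast was not tested.

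The piRNA core motif was no more common at strong summits. CTGTTTCA, searched on both strands in windows reaching 50 bp to either side, was present at 44 of 798 summits of domain 1 (5.51%, against 4.98% of all windows of that length in the domain and 6.08% of those centred outside coding exons). In domain 2 it was present at 148 of 1372 (10.8%, against 8.97% and 10.1%). It was present at 1 of 59 thresholded members of domain 1 and 0 of 67 of domain 2. From signal class 1 to class 4 the shares were 5.69%, 8.53%, 5.88% and 1.59% in domain 1, and 9.63%, 13.2%, 12.65% and 6.32% in domain 2. Class 2 of domain 1 and classes 2 and 3 of domain 2 thus lay above the windows outside coding exons, and class 4 lay below them in both domains.

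TGTCGG behaved the other way. Either strand held it at 14 of 59 thresholded members of domain 1 (23.7%) and 17 of 67 of domain 2 (25.4%), against 2.08% and 3.51% of all windows. Among members below the threshold it was at 20 of 739 (2.71%) in domain 1 and 83 of 1305 (6.36%) in domain 2. Thresholded peaks on the rest of the chromosome had it at 25 of 243 (10.3%), against 2.60% of windows, and thresholded peaks of all nuclear chromosomes at 14.5%. The median GC content of the thresholded windows was 45.5% in domain 1, 48.5% in domain 2 and 47.5% on the rest. The word was picked from windows of these same peaks, so the share at strong members is a description.

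Genes that make or use piRNAs were examined across the genome as a list of 14. Relaxed summits, none thresholded, lay within 250 bp of the starts of 5 of them, where 21.2% of all protein-coding genes had a relaxed and 5.09% a thresholded summit. These were tofu-1 (signal 28.3) and tofu-2 (12.6), whose products trim the 5′ ends of piRNA precursors, and tost-1 (17.5), pid-3 (13.3) and tofu-6 (17.3), which encode members of the PETISCO complex. The peak at tofu-1 was found in both replicates and the other 4 were not. The other 9 had none that near, among them prde-1, tofu-4, tofu-5 and snpc-4 of the transcription complex itself, the Argonaute gene prg-1, the RNA methyltransferase gene henn-1, the trimming enzyme gene parn-1, and pid-1 and erh-2 of PETISCO.

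At the edges of the domains the nearest peaks were ordinary weak ones. Just before and after the start of domain 1 the summits were at chrIV:4499061 (signal 7.33) and chrIV:4504776 (11.3), and at its end at chrIV:6996873 (7.20) and chrIV:7002730 (10.2). For domain 2 they were at chrIV:13499207 (7.29) and chrIV:13503193 (10.8), and at chrIV:17198089 (8.62) and chrIV:17203099 (8.20).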

How the data were processed

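ChIP-seq peak lists of 2 replicates of 1 group were used. Each replicate list and the pooled relaxed list hold 30000 peaks, and the authors' thresholded list holds 2347. Per the deposited notes, the authors derived the thresholded list from the relaxed ones by the irreproducible discovery rate. Per the labels, selected fragments spanned 150 to 350 bp. The names of aligner and peak caller were not given in the sources used here. The deposited signal is the authors' value per peak on a scale that is not given. The deposited −log10 q values were not used. Other deposited columns were the start and end of each peak and its summit offset, which was added to the start.

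Peaks on ce11 were set against the Ensembl 115 annotation and the WBcel235 sequence, the same assembly, past whose chromosome ends 0 pooled nuclear peaks ran. Of 2778 genes listed by ID alone, 2758 took a name from RefSeq by equal coordinates. The members, the windows and the gene list were chosen with earlier results of these data known. A piRNA 5′ end counted as near within 250 bp, and a replicate summit as a match within 100 bp. Shares of positions were counted over every base of a region. The 4 signal classes were divided over all nuclear relaxed peaks, at 8.10, 10.1 and 14.2. A 36-base word was single-copy when found once in the genome on either strand.

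Named members were, per domain, the 8 with the highest signal, the 5 highest near a piRNA 5′ end with no other gene 5′ end within 500 bp, the 3 highest in promoter position, and the extreme windows. Measures were tested on simulated data. Scripts ran on Python 3.11.15 with pandas 2.3.3, numpy 2.4.6, matplotlib 3.10.9 and scipy 1.17.1. Alternatives were each replicate list, a stricter list, other windows, build ce10 and, added after seeing the data, sequence outside coding exons.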

Additional observations from a re-analysis of the deposited data

How the results depend on the processing

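No paired analysis was possible because the samples form 1 group. Taking 1 replicate list in place of the pooled one, the ratio of peak density to the rest of chromosome IV was 1.01 to 1.01 in domain 1 (pooled 1.06) and 1.13 to 1.14 in domain 2 (pooled 1.23). The ratio of shares near a piRNA 5′ end was 1.14 to 1.17 in domain 1 and 1.12 to 1.15 in domain 2, that of median signal 0.98 to 1.03 and 0.95 to 0.98, and the rank correlation over windows 0.26 to 0.40 and 0.21 to 0.39.

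With peaks above the median signal alone, density ratios were 1.02 and 1.11, piRNA ratios 0.98 and 1.10, and the rank correlation 0.37 in domain 1. With thresholded peaks left out, density ratios were 1.05 and 1.26, piRNA ratios 1.30 and 1.18, and support 13.4% in each domain. With the thresholded list, density ratios were 1.10 and 0.84, so that domain 2 was then below the rest. Outside coding exons, an alternative chosen after seeing the data, density ratios were 1.03 and 1.11 and piRNA ratios 1.14 and 1.12. Per single-copy length the density ratio of domain 2 was 1.27.

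With sequence near other 5′ ends left out, piRNA ratios were 1.41 and 1.17. In domain 2 windows of 100 and 500 bp gave 1.19 and 1.13. A match within 50 bp, within 200 bp or by overlap gave support of 12.5%, 28.8% and 38.4% in domain 1, and 11.4%, 24.1% and 33.0% in domain 2. The rank correlation in domain 1 was 0.42 with windows of 50 kb and 0.49 with piRNA loci, and with loci 0.12 in domain 2. The cause of these moves was not tested. In all, 24 of the values under alternatives, some of them among the ranges above, were counted as unmoved on the scale of the replicate spread, and 42 as moved. That spread was narrow for the density ratio of domain 1, at 1.012 and 1.014, so a change from 1.055 to 1.052 counted as moved. Support in both replicates has no value for 1 replicate, and all its alternatives were counted as moved. The 42 are therefore not a count of results beyond replicate variation.

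Depth is unknown, and a relaxed list keeps a fixed number of peaks, so the density of weak peaks in a region depends on the rest of the genome. Replicates were combined by the authors, and there was no second group.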
